A study of Mus musculus with 11 samples.

Results

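Tafazzin and 9 further enzymes and carriers of the cardiolipin pathway were followed across 11 clonal lines of mouse granulocyte-monocyte progenitors. The 10 genes were taken from a list of names and matched to the Ensembl identifiers of the count files, which list 37583 genes. All 10 were found and all 10 passed the filter on low counts. The groups were 5 knockout (KO) clones, labelled Taz knockout, and 6 wild-type (WT) clones. Each line is 1 clone of progenitors from C57BL/6 fetal liver at embryonic day 15.5. KO and WT lines alike carry ER-Hoxb8, an estrogen-regulated form of the transcription factor Hoxb8 that holds progenitors in an immature, dividing state, and all were cultured with 0.5 uM beta-estradiol and medium equivalent to about 50 ng/ml of stem cell factor. The titles number the KO clones 3 (3H and 3I) or 4 (4J, 4K and 4L) and the WT clones 1 (1A, 1B and 1C) or 2 (2D, 2E and 2F). Values listed for the 5 KO clones are always in the order 3H, 3I, 4J, 4K, 4L. The labels do not say what the title numbers stand for, how many embryos the lines came from or which part of Taz was removed, so p-values measure the spread between these clones only.

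Cardiolipin is the 4-chained phospholipid of the inner mitochondrial membrane, where it holds respiratory complexes and cristae together. It is built on site from phosphatidic acid by a short chain of enzymes and is then remodelled, one acyl chain being removed and another put back, and tafazzin is the transacylase of this last step. Inherited loss of tafazzin causes Barth syndrome in people, with heart muscle disease and often too few neutrophils. The comparison asks how the RNA of progenitors, the cells from which neutrophils arise, differs when tafazzin is missing, here for the genes that make and remodel its substrate.

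The gene windows just before 3 transcription starts are shown because the results turn on these genes: Taz itself, and Crls1 and Pgs1, the 2 of the other 9 genes that came nearest to a call. They are the 250 bases before the RefSeq start in GRCm38.p6, plus strand, at chrX:74282468-74282717, chr2:132846416-132846665 and chr11:117986607-117986856. The Taz and Pgs1 windows lie inside the longer gene spans of GENCODE, which start further upstream. Capitals mark matches to any of 5 motifs searched on both strands.
Taz: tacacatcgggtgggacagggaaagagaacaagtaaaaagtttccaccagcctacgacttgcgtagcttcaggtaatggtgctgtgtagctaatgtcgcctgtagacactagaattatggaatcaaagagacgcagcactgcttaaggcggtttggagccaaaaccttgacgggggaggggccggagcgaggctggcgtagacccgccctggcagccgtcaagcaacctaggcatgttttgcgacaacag
Crls1: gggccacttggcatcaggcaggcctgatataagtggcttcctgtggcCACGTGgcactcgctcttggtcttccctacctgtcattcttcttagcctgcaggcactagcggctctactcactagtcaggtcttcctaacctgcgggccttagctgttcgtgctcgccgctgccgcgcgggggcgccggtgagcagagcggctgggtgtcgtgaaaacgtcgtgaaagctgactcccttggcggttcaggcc
Pgs1: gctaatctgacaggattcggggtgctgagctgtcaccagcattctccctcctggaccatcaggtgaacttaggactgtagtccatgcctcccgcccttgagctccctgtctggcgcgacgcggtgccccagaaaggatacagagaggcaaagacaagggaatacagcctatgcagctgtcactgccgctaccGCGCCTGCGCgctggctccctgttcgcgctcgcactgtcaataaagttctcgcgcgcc

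The motifs were the E-box CACGTG, the cyclic AMP response element TGACGTCA, the ETS-factor site CCGGAAG, the core of the NRF1 site (GCGC, any base, TGCGC) and the core TGATGNAA of the site read by ATF4 with C/EBP partners. The Crls1 window held 1 E-box, which 6.02% of 32851 RefSeq promoter windows of this length hold. The Pgs1 window held 1 NRF1 core, present in 3.74% of windows. None of the 5 was spelled out in the Taz window. Of the 10 genes, 9 had a window in the RefSeq table, and the other matches were 1 cyclic AMP response element before Cds1 (1.55% of windows) and 1 E-box and 2 ETS sites before Prelid1 (6.91% of windows hold an ETS site). The ATF4 core, in 3.45% of all windows, was in none of the 9. A match is a description of letters and not a shown binding site.

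The 10 genes are spread over 8 chromosomes. In GRCm38, 3 lie on chromosome 2: Crls1 at chr2:132846666-132866785 and Cds2 at chr2:132263148-132312050, both on the plus strand, and Ptpmt1 at chr2:90908716-90918258 on the minus strand. The others are Pgs1 at chr11:117986292-118024011, Cds1 at chr5:101765130-101823858, Lclat1 at chr17:73107985-73243368, Pnpla8 at chr12:44221370-44322532 and Prelid1 at chr13:55320500-55325272 on the plus strand, Tamm41 at chr6:115004381-115037876 on the minus strand, and Taz on the X chromosome. Taz is thus the only 1 of the 10 that is X-linked.

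The libraries were deep and held markers of the labelled cell type. Gene counts totalled 19778119 to 23658158 in KO clones and 21966954 to 27431544 in WT clones. All 12 progenitor and early granulocyte markers averaged at least 1 CPM in both genotypes (edgeR's counts per unit of sequencing depth, with library sizes scaled by TMM). Their summed levels were 12370 to 20440 CPM in KO and 13290 to 22560 CPM in WT clones. Mpo, the most abundant, had 5343 to 12050 CPM in KO and 5842 to 13230 CPM in WT clones. Other markers were low or uneven. Csf1r had 0.127 to 2.18 CPM in KO and 0.332 to 3.19 CPM in WT clones, and Elane 2.26 to 147 and 23.3 to 824 CPM. Irf8 was also low, at 5.37 to 13.25 CPM in KO and 9.98 to 14.5 CPM in WT clones. The hepatocyte markers Ttr, Serpina1a and Fgb, the macrophage markers C1qa, C1qc and Marco, and the lymphoid markers Cd3e and Pax5 had no read in any clone. The other hepatocyte markers, Alb, Afp and Apoa1, had few reads, and the 6 together summed to 0 to 1.95 CPM in KO and 0.136 to 0.844 CPM in WT clones. Of 6 markers of megakaryocytes and mast cells, 5 were present (2070 to 4850 CPM summed in KO, 999.8 to 3844 in WT). Most of that sum was Cpa3, with 1804 to 4322 CPM in KO and 855 to 3039 CPM in WT clones. Summed levels of the 7 macrophage markers were 23.9 to 54.0 CPM in KO and 10.1 to 48.3 CPM in WT clones, those of the 7 erythroid markers 12.2 to 26.7 and 14.6 to 73.3 CPM, and those of the 6 lymphoid markers 95.7 to 200.6 and 45.5 to 186.9 CPM. WT 2D stood apart most: summed levels of 9 late neutrophil genes were 14.95 to 140.9 CPM in KO clones, 1518 CPM in WT 2D and 19.1 to 107 CPM in the other WT clones. For the 10 genes, the most abundant gene of each list and the nearest neighbours of Taz, the value without WT 2D is also given where it moved by more than 1.5 times or the call changed. WT 1A had the highest summed level of the erythroid markers, 73.3 CPM, against at most 36.5 CPM in the other WT clones.

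Taz fell in the KO clones and was the only 1 of the 10 genes called. It had 3.45, 3.31, 3.06, 4.09 and 2.21 CPM in the KO clones, against a lowest of 36.9, a median of 38.4 and a highest of 43.8 CPM in WT clones. The genotypes did not come near each other, so all 11 libraries matched their labels. Taz averaged 3.22 ± 0.684 CPM in KO clones (SD, n = 5) and 39.1 ± 2.54 CPM in WT clones (SD, n = 6), and its log2 fold change was -3.60 ± 0.14 (SE). In edgeR's quasi-likelihood test the adjusted p was 4.08e-07, the smallest of the 11900 genes tested, although 15 tested genes had a lower log2 fold change. A two-sided exact permutation test of mean log2 CPM over all 462 splits returned p = 0.00216, its smallest possible value. The log2 fold change lay between -3.70 and -3.49 when each clone in turn was left out. In bulk RNA, fewer cells with a transcript and less of it per cell cannot be told apart.

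KO clones still held some reads of Taz. The counts were 68, 78, 72, 87 and 44 in the KO clones, which is 8.83%, 8.47%, 7.82%, 10.5% and 5.65% of the WT mean once scaled. The exact 95% Poisson intervals of the counts were 69.7 to 107 in 4K and 32.0 to 59.1 in 4L, so these KO clones differed by more than counting error, which is all that such an interval covers. Per kilobase of exon, 11.2% of tested genes had a lower mean level than Taz in KO clones, against 47.5% in WT clones. In the GRCm38 annotation Taz lies at chrX:74281912-74290151 on the plus strand and none of its exon bases are shared with another counted gene. Counting ignored strand, and reads from any exons left in place would be included.

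**Figure D1:**
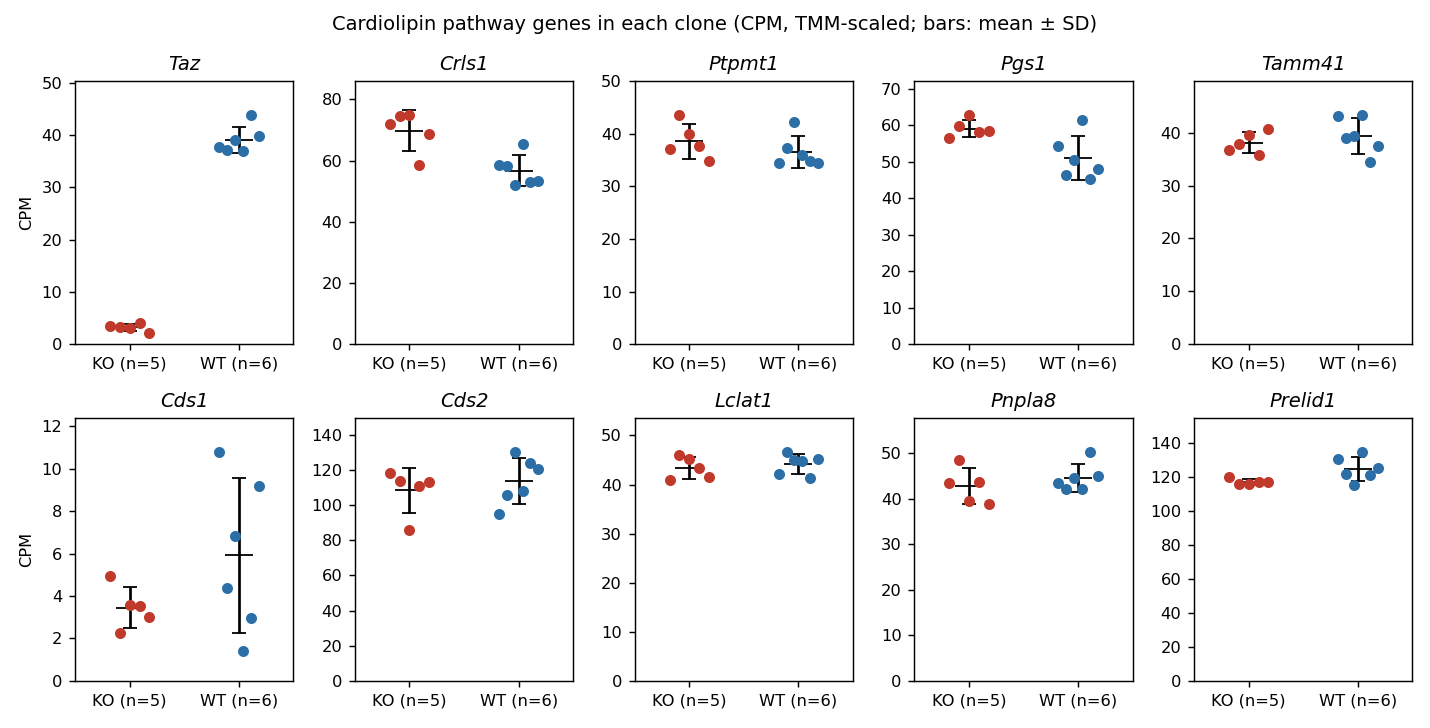
Each panel shows 1 gene, with the level in CPM on the vertical axis from 0, KO clones on the left (red) and WT clones on the right (blue). Points are clones and bars are the mean ± SD. Taz lies between 2.21 and 4.09 CPM in KO clones and between 36.9 and 43.8 CPM in WT clones, while the clones of both genotypes overlap for the other 9 genes.

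Of the 10 genes, 1 was called at an edgeR adjusted p under 0.05, against 5.05% of all tested genes, and that was Taz. None of the other 9 was called in either direction. At an unadjusted p under 0.05 edgeR listed 2 as higher (Crls1 and Pgs1) and 1 as lower (Prelid1), that is 3 of 9, where 20.3% of all tested genes passed. DESeq2 called 1 of the 9 (Crls1), where it called 10.6% of its genes, and limma-voom called 0 of the 9, where it called 5.03%. The median log2 fold change of the 9 was -0.05, with 3 positive, and that of all tested genes was -0.01, with 48.4% positive. The KO and WT ranges overlapped for each of the 9, whereas 5.99% of all tested genes had ranges that did not.

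**Figure D2:**
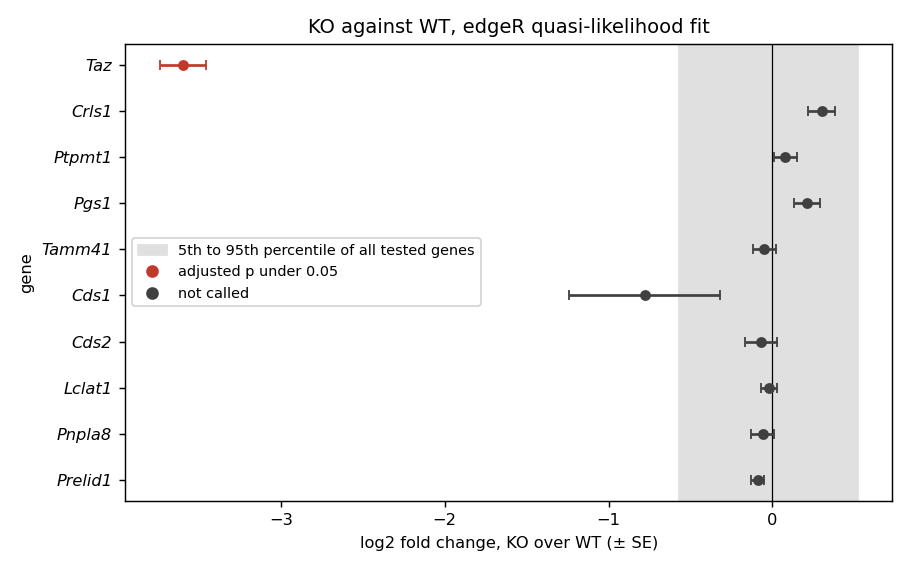
Log2 fold changes of KO over WT (points) with their standard errors (bars) for the 10 genes, red where called and grey where not. The shaded band runs from the 5th to the 95th percentile of all tested genes, -0.57 to 0.52. Taz at -3.60 is far outside it, Cds1 at -0.78 is outside it with the widest error of the 10, and the other 8 lie within it.

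The supply of phosphatidic acid to the inner membrane begins with Prelid1, which with its partner TRIAP1 carries this lipid across the intermembrane space. Prelid1 had 120.0, 116.2, 115.9, 117.2 and 117.4 CPM in the KO clones, against a lowest of 115.5, a median of 123.5 and a highest of 134.8 CPM in WT clones. The KO clones lay together at the low end of the WT range, and their coefficient of variation of 1.38% was lower than that of all but 0.664% of tested genes in KO clones. The WT coefficient was 5.57%. Prelid1 had 2341 to 2738 reads per KO clone, and counting error alone would on average spread such counts by more than 1.38%. The closeness of the KO clones is therefore not read as a trait of Prelid1. The log2 fold change was -0.09 ± 0.04 (SE; edgeR adjusted p = 0.231). Of the GRCm38 exon bases of Prelid1, 50.0% overlap the opposite-strand genes Mxd3 and Rab24. If the submitters' annotation held the same overlap, reads there would count as ambiguous, so its level may miss some of its reads.

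The next step joins phosphatidic acid to CTP. TAMM41 does this inside mitochondria, and CDS1 and CDS2 do it in the endoplasmic reticulum, mainly for phosphatidylinositol. Tamm41 had 36.8, 37.9, 39.6, 35.7 and 40.7 CPM in the KO clones, against a lowest of 34.4, a median of 39.2 and a highest of 43.3 CPM in WT clones. All KO clones fell within the WT range, and the log2 fold change was -0.05 ± 0.07 (SE; 95% interval -0.19 to 0.09; edgeR adjusted p = 0.731). Without WT 2D it was -0.02.

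Cds2 was the more abundant of the endoplasmic reticulum pair in all 11 clones. It had 118.1, 113.9, 85.8, 111.1 and 112.9 CPM in the KO clones, against a lowest of 95.2, a median of 114.4 and a highest of 130.2 CPM in WT clones. KO 4J alone lay under the WT range. The log2 fold change was -0.07 ± 0.10 (SE; edgeR adjusted p = 0.732), and it was 3.81e-05 without KO 4J.

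Cds1 was the most variable of the 10. It had 4.92, 2.25, 3.57, 3.53 and 3.01 CPM in the KO clones, against 1.42 CPM in the lowest WT clone (2D), a WT median of 5.61 and 10.8 CPM in the highest WT clone (1A). All KO clones therefore lay inside the span of the WT clones. Its coefficient of variation in WT clones, 61.6%, was higher than that of 92.8% of tested genes, and in KO clones it was 28.3%. The log2 fold change of -0.78 ± 0.46 (SE) had a 95% interval of -1.79 to 0.23 (edgeR adjusted p = 0.379). It was -0.52 without WT 1A, the clone with the high erythroid markers, and -0.98 without WT 2D (adjusted p = 0.601 and 0.137), and the part of either marker list was not tested. Per kilobase of exon, Cds1 made up 4.37% to 8.81% of the Cds1 and Cds2 sum in KO clones (median 6.85%) and 2.97% to 20.8% in WT clones (median 9.79%).

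PGS1 then commits the lipid to the cardiolipin route by making phosphatidylglycerophosphate. Pgs1 had 56.6, 59.7, 62.7, 58.2 and 58.4 CPM in the KO clones, against a lowest of 45.4, a median of 49.2 and a highest of 61.3 CPM in WT clones. Every KO clone was above 5 of the 6 WT clones, and the exception was WT 2D, the clone with the high late neutrophil genes. The log2 fold change was 0.21 ± 0.08 (SE; 95% interval 0.05 to 0.38; edgeR adjusted p = 0.137). Without WT 2D it was 0.27 ± 0.05 with an adjusted p of 0.0177, and Pgs1 was then called. The part of the late neutrophil genes in this was not tested.

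PTPMT1 removes the phosphate to give phosphatidylglycerol. Ptpmt1 had 37.0, 43.5, 39.9, 37.6 and 34.8 CPM in the KO clones, against a lowest of 34.5, a median of 35.4 and a highest of 42.3 CPM in WT clones. The genotypes covered nearly the same span, and the log2 fold change was 0.08 ± 0.07 (SE; 95% interval -0.08 to 0.23; edgeR adjusted p = 0.593). Exons of Kbtbd4 and Gm17661 on the other strand overlap 52.3% of its GRCm38 exon bases, so its level too may miss some reads.

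CRLS1, cardiolipin synthase, joins phosphatidylglycerol to CDP-diacylglycerol and so makes the immature lipid that tafazzin works on. Crls1 had 72.04, 74.5, 74.8, 58.7 and 68.8 CPM in the KO clones, against a lowest of 51.9, a median of 55.8 and a highest of 65.3 CPM in WT clones. KO 4K was the only KO clone inside the WT range, and WT 2D, with its 1518 CPM of late neutrophil genes, the only WT clone inside the KO range. Crls1 averaged 69.8 ± 6.63 CPM in KO clones (SD, n = 5) and 56.8 ± 5.01 CPM in WT clones (SD, n = 6). Its log2 fold change was 0.30 ± 0.08 (SE; 95% interval 0.13 to 0.47), and its edgeR adjusted p of 0.0503 fell just short of the threshold.

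The side of the threshold on which Crls1 stood depended on the clones and the settings. It was called without WT 2D (log2 fold change 0.34 ± 0.07, SE; adjusted p = 0.0202) or without KO 4K (0.35 ± 0.07; adjusted p = 0.0234). The part of the late neutrophil genes in the level of Crls1 was not tested. Its fold change was positive in all 26 alternative settings, between 0.25 and 0.38, and it was called in 7 of them (adjusted p from 0.00681 to 0.299). Without all clones of title number 1, 2, 3 or 4 it was not called (adjusted p = 0.290, 0.107, 0.299 and 0.186).

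**Figure D3:**
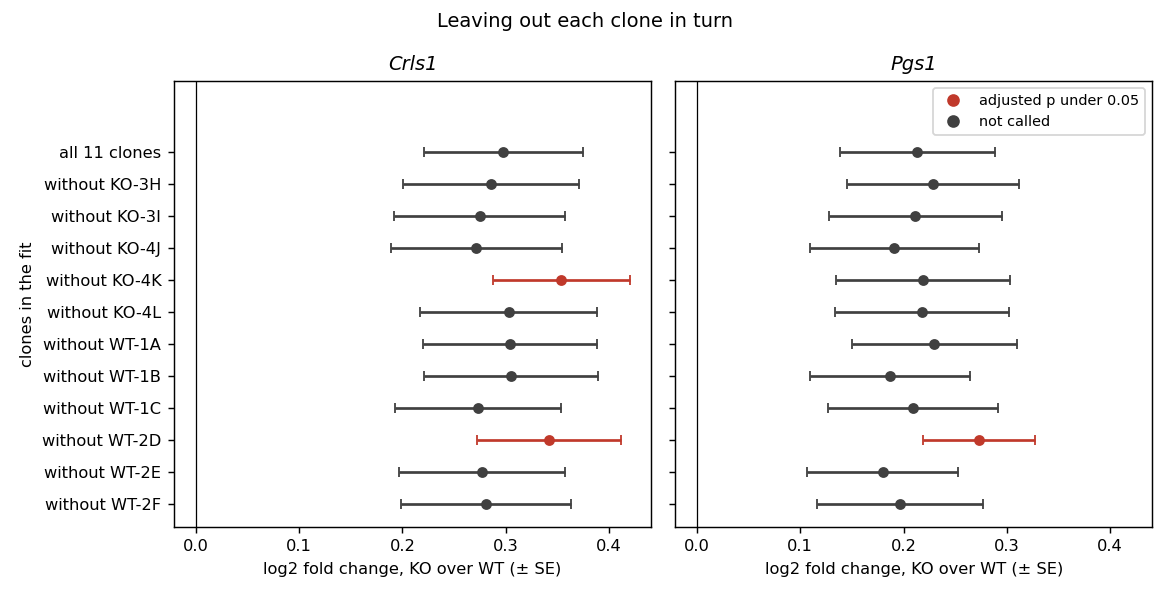
Log2 fold changes of KO over WT with standard errors for Crls1 (left) and Pgs1 (right), from the fit to all 11 clones (top row) and from fits that leave out each clone in turn. Red marks an adjusted p under 0.05. The fold change stays above 0 in every row, and the red points are Crls1 without KO 4K (0.35) or WT 2D (0.34) and Pgs1 without WT 2D (0.27).

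Remodelling was represented by a phospholipase and an acyltransferase beside tafazzin. PNPLA8, also called iPLA2-gamma, is a mitochondrial phospholipase that can remove an acyl chain from cardiolipin. Pnpla8 had 43.5, 48.7, 39.5, 43.7 and 39.0 CPM in the KO clones, against a lowest of 42.1, a median of 44.1 and a highest of 50.3 CPM in WT clones. KO 4J and 4L lay under the WT range and the other KO clones inside it, and the log2 fold change was -0.06 ± 0.07 (SE; 95% interval -0.21 to 0.09; edgeR adjusted p = 0.682).

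LCLAT1, also called ALCAT1, is an acyltransferase that can put chains back on lysocardiolipin. Lclat1 had 40.9, 46.1, 45.1, 43.4 and 41.5 CPM in the KO clones, against a lowest of 41.3, a median of 44.9 and a highest of 46.6 CPM in WT clones. KO 3H lay just under the WT range and the other KO clones inside it. The bound was narrow, with a log2 fold change of -0.02 ± 0.05 (SE) with a 95% interval of -0.13 to 0.08 (edgeR adjusted p = 0.817).

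Levels were compared between genes per kilobase of exon (RPKM), using exon lengths of the GRCm38 annotation. In WT clones Prelid1 was highest at 45.8 ± 2.55 RPKM and Crls1 followed at 27.3 ± 2.41 RPKM (SD, n = 6). Cds2 (12.5 RPKM), Ptpmt1 (9.93), Pgs1 (9.56) and Lclat1 (9.03) came next, and the WT ranges of neighbours in this order overlapped. Tamm41 at 7.48 ± 0.648 RPKM and Taz at 7.29 ± 0.473 RPKM also overlapped. Pnpla8 (3.15 ± 0.214 RPKM) and Cds1 (1.51 ± 0.927 RPKM) were lowest and stood apart from their neighbours. Across all tested genes the WT median was 8.07 RPKM, and 89.8% of genes had a lower WT level than Prelid1, 81.2% a lower one than Crls1 and 20.2% a lower one than Cds1.

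The order in KO clones differed mainly through Taz, which at 0.601 ± 0.128 RPKM (SD, n = 5) was the lowest of the 10, under Cds1 at 0.877 ± 0.249 RPKM. Prelid1 (43.03 ± 0.595 RPKM) and Crls1 (33.5 ± 3.18 RPKM) remained first and second. With the longest annotated transcript as the length, the first, second and last in WT were the same genes. Taz moved to 13.5 RPKM in WT, above Tamm41 at 12.6 RPKM. In KO clones the last place changed, with the Cds1 mean at 0.8805 RPKM under Taz at 1.115 RPKM. The middle of the order and the last place in KO clones are thus set in part by the length used.

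**Figure D4:**
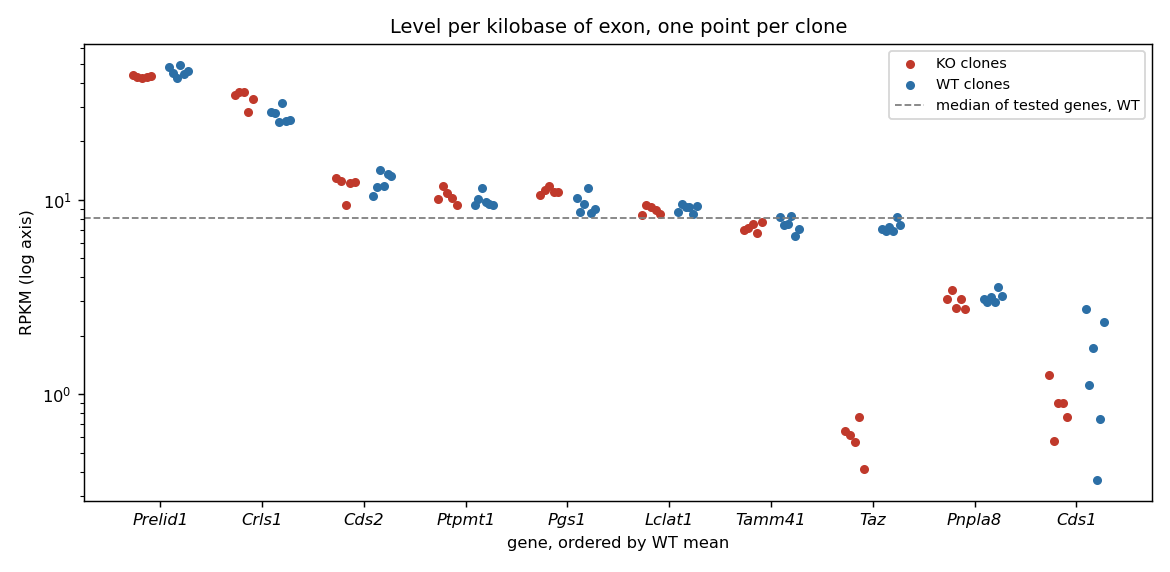
RPKM of each gene on a log axis, ordered by the WT mean, with 1 point per clone (KO red, left of WT blue). The dashed line is the WT median of all tested genes, 8.07 RPKM. With this exon length Taz in KO clones, 0.411 to 0.763 RPKM, is the lowest of the 10 by mean and overlaps Cds1 in KO clones. WT clones spread most for Cds1, from 0.362 to 2.74 RPKM.

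Within each genotype no difference by title number was detected among the 10 genes. In the edgeR model of 4 title-number means, 0 of 10 were called between numbers 1 and 2 in WT clones and 0 of 10 between numbers 3 and 4 in KO clones, and 0 of 10 had an unadjusted p under 0.05 in either contrast. Over all tested genes 0% were called in either contrast, and 3.13% and 1.35% had an unadjusted p under 0.05. The largest difference was that of Cds1 between numbers 1 and 2, a log2 fold change of 0.70 ± 0.64 (SE; adjusted p = 1.00), and within KO clones that of Pnpla8 between numbers 3 and 4, 0.18 ± 0.09 (adjusted p = 1). With 2 or 3 clones a side only large differences could have been called.

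No clone was extreme throughout the pathway. Among the 9 genes other than Taz, KO 4J was the highest of the 11 clones for Crls1 and Pgs1 and the lowest for Cds2. WT 1C was the highest for Cds2 and the lowest for Crls1 and Prelid1. WT 2E was the highest for Pnpla8 and the lowest for Pgs1 and Tamm41. WT 2D was the highest for Tamm41 and Prelid1 and the lowest for Cds1. WT 2F and KO 4K were neither highest nor lowest for any of the 9.

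The wider pathway was described by 38 further genes in 5 lists, of which 34 passed the filter. None was called in either direction by edgeR, against 2.76% of all tested genes called higher and 2.29% called lower. Their median log2 fold change was -0.05, with 13 of 34 positive, beside -0.01 over all tested genes. At an unadjusted p under 0.05 edgeR listed 2 as higher (Agpat3 and Cdipt) and 3 as lower (Pla2g15, Abhd18 and Opa1), 5 of 34 where 20.3% of all tested genes passed. DESeq2 called 1 of the 34 higher, Cdipt, where it called 10.6% of its genes, and limma-voom called 0, where it called 5.03%.

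Genes that supply phosphatidic acid, 8 tested, had a median log2 fold change of -0.05. The most abundant of them, the acyltransferase gene Agpat5, stood at 124.3 ± 13.8 CPM in KO clones and 141.3 ± 19.9 CPM in WT clones (SD, n = 5 and 6). Its log2 fold change was -0.19 ± 0.10 (SE), with an edgeR adjusted p of 0.353, and -0.12 without WT 2D. The related Agpat3 averaged 1.70 ± 0.833 CPM in KO clones and 0.813 ± 0.333 CPM in WT clones, with overlapping ranges and an adjusted p of 0.157. Phosphatidic acid can also come from the kinase gene Agk, which averaged 13.9 ± 1.98 CPM in KO clones and 14.3 ± 1.29 CPM in WT clones.

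Genes of lipid transfer into and across mitochondria, 6 tested, had a median of 0.03. Triap1, the partner of Prelid1, averaged 29.0 ± 1.99 CPM in KO clones and 26.5 ± 2.33 CPM in WT clones (log2 fold change 0.13 ± 0.07, SE; edgeR adjusted p = 0.342). Stard7, a carrier of phosphatidylcholine, was the most abundant, at 235 ± 7.55 CPM in KO clones and 246 ± 11.0 CPM in WT clones (-0.07 ± 0.04; adjusted p = 0.357). Prelid2, a little-studied relative of Prelid1, was too low to pass the filter and is named here after its values were seen. It had 4 reads in KO 3H and 0 in the other 4 KO clones, against 5 to 47 reads in each of the 6 WT clones, 4 reads in all in KO and 143 in WT. With no filter on low counts edgeR called it lower (adjusted p = 0.0387).

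Among 8 tested genes of remodelling and hydrolysis the median was -0.12. Hadha, the trifunctional protein subunit that has also been described as a monolysocardiolipin acyltransferase, was the most abundant at 238 ± 9.89 CPM in KO clones and 246 ± 10.2 CPM in WT clones (log2 fold change -0.05 ± 0.04, SE; edgeR adjusted p = 0.506). Abhd18 averaged 3.78 ± 0.876 CPM in KO clones and 5.74 ± 1.44 CPM in WT clones (-0.60 ± 0.21; adjusted p = 0.138). Pld6, which encodes an outer membrane phospholipase D that cleaves cardiolipin, was uneven between clones of both genotypes. It had 33 reads in KO 3H and 0 in the other 4 KO clones, and 1, 39, 51, 47, 29 and 0 reads in WT 1A, 1B, 1C, 2D, 2E and 2F. Its log2 fold change of -1.80 ± 1.43 was not called (adjusted p = 0.527).

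In the branches to phosphatidylethanolamine and phosphatidylinositol, 6 genes tested, the median was 0.02. Cdipt encodes phosphatidylinositol synthase, which also uses CDP-diacylglycerol, but mainly that made in the endoplasmic reticulum. Cdipt had 105.8, 109.3, 110.0, 102.4 and 100.1 CPM in the KO clones, against a lowest of 88.4 and a highest of 102.5 CPM in WT clones. Only KO 4K and 4L fell inside the WT range, and the log2 fold change was 0.14 ± 0.05 (SE; edgeR adjusted p = 0.104). DESeq2 called it (adjusted p = 0.0367). Among 6 scaffold genes that bind or organise cardiolipin the median was -0.09. The prohibitin gene Phb2 was the most abundant, at 283 ± 15.5 CPM in KO clones and 319 ± 55.5 CPM in WT clones (-0.17 ± 0.11; adjusted p = 0.392), a log2 fold change that was -0.08 without WT 2D. The fusion GTPase gene Opa1 averaged 177 ± 10.6 and 195 ± 12.8 CPM (-0.14 ± 0.05; adjusted p = 0.191).

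**Figure D5:**
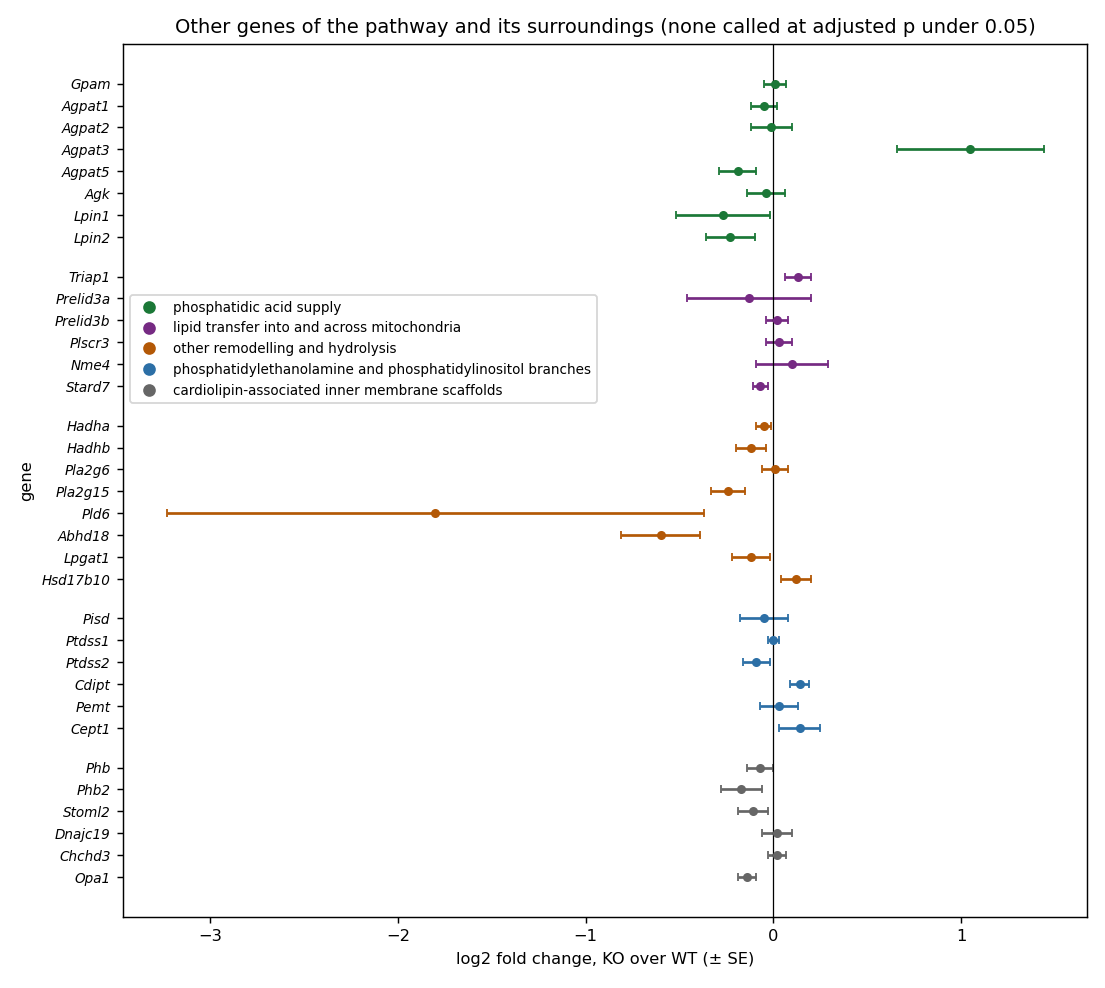
Log2 fold changes of KO over WT (points) with standard errors (bars) for the 34 tested genes of the 5 lists, coloured by list. None was called by edgeR, and the longest bars belong to the unevenly expressed Pld6 at -1.80 and the low Agpat3 at 1.05.

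The genes beside Taz on the X chromosome were read as a check on the locus. Of the 6 protein-coding genes on each side, 10 of 12 were tested and edgeR called 0, against 5.05% of all tested genes. At an unadjusted p under 0.05, 1 was higher (Flna) and 1 lower (Lage3), a share close to the 20.3% of all tested genes. DESeq2 and limma-voom also called 0. The neighbour on the left, Dnase1l1, runs on the opposite strand and its span overlaps that of Taz without sharing exon bases. It averaged 16.1 ± 2.73 CPM in KO clones and 13.5 ± 4.56 CPM in WT clones (SD, n = 5 and 6; log2 fold change 0.25 ± 0.23, SE; edgeR adjusted p = 0.593). On the right, Atp6ap1, a subunit of the vacuolar proton pump 6946 bases away, averaged 244 ± 15.4 CPM in KO clones and 220 ± 28.2 CPM in WT clones (0.15 ± 0.09; adjusted p = 0.392). Without WT 2D the log2 fold change was 0.12 for Dnase1l1 and 0.08 for Atp6ap1, and without WT 2E that of Dnase1l1 was 0.40.

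Profiles were compared by the root mean square difference of centred log2 CPM over the 11 clones, among 9296 named genes with a mean of at least 5 CPM, as a description with no test. The nearest to Taz were Gm45837 at 0.898, the glutamine synthetase gene Glul at 0.990, the transcription factor gene Plag1 at 1.02, the kinase gene Camk2a at 1.11 and the myosin gene Myo7a at 1.12. Their log2 fold changes lay between -2.43 and -1.39, so none fell as far as Taz. Such distances grow with the size of a gene's own change, so those of Taz and Crls1 cannot be compared. The nearest to Crls1 were the translation initiation factor gene Eif3c (0.0553), the elongation factor gene Tcea1 (0.0578) and the nuclease gene Aen (0.0632). Next were the ribosome assembly gene Pwp2 (0.0641) and the complex III subunit gene Uqcrq (0.0670). These 5 had log2 fold changes of 0.28 to 0.33, beside 0.30 for Crls1, a likeness set by how they were chosen.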

How the data were processed

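RNA of 11 clones was sequenced from polyA-selected, strand-specific libraries, per the labels' protocols. The deposited values are whole-number counts of reads on each Ensembl gene, kept separate for every clone. The submitters' processing notes name STAR, HTSeq, edgeR and the build mm9, with no version, and counting was not by strand per the files' own naming. Closing totals that name no gene (no gene 6.59% in KO and 6.07% in WT, ambiguous 2.79% and 2.85%) stayed out of library sizes and tests. Symbols, order and exon lengths came from GENCODE M21 (GRCm38) by ID, with 87.4% of 37583 IDs matched, and coordinates printed are of that build. All 25 pairs of same-genotype clones differed beyond sampling noise, the chi-square per gene being 15.2 or more.

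KO and WT were compared over all genes with edgeR's robust quasi-likelihood test, TMM, filterByExpr and Benjamini-Hochberg adjustment, called under 0.05. Each SE was obtained by dividing the size of the log2 fold change by the root of F. Log2 CPM used a prior count of 2. The fit was tested on simulated data. Fits were run with edgeR 4.0.16, DESeq2 1.42.0 and limma 3.58.1 under R 4.3.3, and figures with matplotlib 3.10.9 under Python 3.11.15.

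The members and lists were chosen with earlier results of these data known. Named genes were the 10 members, the called genes and the most abundant gene of each list, called and nearest neighbours of Taz, and the 5 profiles nearest to Taz and Crls1. Prelid2, Agpat3, Agk, Triap1, Abhd18, Pld6, Pla2g15, Opa1, Flna and Lage3 were named after their values were seen. Alternatives were other normalisations, filters and tools, a random block and means by title number, equal depth, and leaving out each clone, each title number or the 10 most abundant genes.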

Additional observations from a re-analysis of the deposited data

Results flagged for a closer look

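Of 34 groups of clones examined for a clone standing apart (17 genes in KO and in WT), 3 were found, and chance gives about 1 in 20. Cds2 in KO clones was lowest in 4J at 85.8 CPM, with the other 4 KO clones between 111.1 and 118.1 CPM. Ptpmt1 in WT clones was highest in 1C at 42.3 CPM, with the others between 34.5 and 37.3 CPM. Pnpla8 in WT clones was highest in 2E at 50.3 CPM, with the others between 42.1 and 45.05 CPM.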

How the results depend on the processing

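Taz was called in all 26 alternative settings, with log2 fold changes of -3.70 to -3.49. Among the other members the count called higher, 0 in the main setting, was 1 with upper-quartile normalisation, a filter of 1 CPM in 5 clones, DESeq2 or thinning to equal depth (Crls1), and 2 with the title number as a random block (Crls1 and Pgs1). Fitted on title-number means it was 0, with adjusted p = 0.0843 for Crls1, 0.224 for Pgs1 and 0.162 for Cdipt. It was 0 to 2 when each clone was left out. Among the wider pathway 1 was called higher with DESeq2 or the random block (Cdipt), and 1 lower with no filter (Prelid2) or the random block (Opa1). When each clone was left out, 0 to 1 was called lower, which was Prelid2 without KO 3H. KO 3H was the only KO clone with reads of Prelid2, so the fit behind that call held no KO read of it. The random block also called 1 neighbour of Taz lower (Lage3). Its estimated correlation within title numbers was -0.21, and it called 1963 of all tested genes against 601 in the main setting. Over all tested genes the other settings called 307 to 1261, leaving out 1 clone 240 (without KO 3I) to 739 (without WT 2D), and leaving out a title number 32 to 296. The sign of 2 uncalled members turned: Cds2 was 0.032 without title number 4 and -0.12 to 3.81e-05 when each clone was left out, and Pnpla8 was 0.053 without title number 4. The cause was not tested. No paired analysis was possible because the titles of KO and WT clones share no number. With fewer than 10 reads per clone, as for Prelid2 in KO, counting error limits any fold.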

Other observations

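A few genes too low for the test had reads mostly on 1 side, and they are named after their values were seen. Agpat4, an acyltransferase gene of the phosphatidic acid list, had 1 read in all in KO clones and 52 in WT clones, 25 of them in WT 1A and 0 in WT 1C. Tktl1, a transketolase-like gene near Taz on the X chromosome, had 11 reads in 4 KO clones and 0 in WT clones. At such counts a fold carries mostly counting error, and none is given.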
